A study of Homo sapiens with 12 samples.

Results

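The fibroblast growth factor (FGF) ligands and receptors were followed through SOX2 knock-down in 2 human embryonal carcinoma lines. The 10 genes, FGF2, FGF4, FGF8, FGF13, FGF17, FGF19, FGFR1, FGFR2, FGFR3 and FGFR4, were chosen by name, and each was measured by 1 probe set among the 18404 genes that had one. FGF4 is a classic joint target of SOX2 and POU5F1. RNA came from 2102Ep and NTera-2 cells, both established embryonal carcinoma lines (the stem cells of teratocarcinoma), and was hybridised to Affymetrix Human Gene 1.0 ST arrays. The groups were 2102Ep cells given an siRNA against SOX2 (siSOX2), 2102Ep cells given a non-targeting siRNA (control), NTera-2 cells given siSOX2 and NTera-2 control cells, with 3 arrays of biological replicates in each of the 4 groups. All cells were transfected with a lipid for 6 hours and then kept for 72 hours in growth medium with serum. A single siRNA against SOX2 was used, without a rescue, and because the transfection lipid (Lipofectamine 2000 in 2102Ep, Lipofectamine RNAiMAX in NTera-2) and the amount of siRNA also differed, line, reagent and siRNA amount cannot be told apart.

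FGF ligands are secreted proteins that bind heparan sulphate and receptor tyrosine kinases, the FGF receptors, and pass a signal through RAS to the ERK kinases. ERK signalling in turn switches on ETV transcription factors and its own inhibitors, the Sprouty proteins and the phosphatase DUSP6. In mouse embryos FGF4 from the inner cell mass is needed for the hypoblast lineage and FGF8 for cell movement through the primitive streak, while human pluripotent cells are commonly grown with FGF2.

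SOX2 itself was measured first, as the target of the siRNA. Its signal, on the log2 scale on which all signals here are given, was 9.17, 9.30 and 8.80 in siSOX2 2102Ep cells, against 12.28, 12.21 and 12.20 in their controls, so that 11.4% of the control signal was left. In siSOX2 NTera-2 cells it was 11.92, 11.95 and 11.86, against 12.51, 12.52 and 12.63 in their controls, which left 64%. SOX2 fell in both lines (limma adjusted p = 6.22e-12 in 2102Ep and 0.00225 in NTera-2), and the fall was larger in 2102Ep by 2.49 on the log2 scale (adjusted p = 4.87e-08). These are RNA signals, and the Western blot of the paper showed no SOX2 protein after siSOX2 in either line. The 13 embryonal carcinoma markers that were measured include SOX2 itself, so their fall is in part set by the siRNA. They averaged 10.71 to 10.87 on the siSOX2 2102Ep arrays, against 11.34 to 11.55 on the control arrays. In NTera-2 they averaged 10.90 to 11.08 on the siSOX2 arrays, against 11.20 to 11.40 on the controls. Of these markers 8 fell in 2102Ep and 5 in NTera-2 at an adjusted p of 0.05 or less, SOX2 counted in both, against 5.9% and 1.98% of all genes. The part of these markers in the changes of FGF genes was not tested. POU5F1 and NANOG, defining markers of these cells, had no probe set of their own gene alone. The 10 fibroblast markers averaged 6.95 to 7.04 on the siSOX2 2102Ep arrays, against 6.62 to 6.85 on the controls, and 6.74 to 6.91 on the siSOX2 NTera-2 arrays, against 6.73 to 6.86 on the controls. Of the fibroblast markers 2 rose and 1 fell in 2102Ep, against 6.76% and 5.9% of all genes, and 3 rose and 2 fell in NTera-2, against 2.96% and 1.98%. For the 8 leukocyte markers the averages lay between 6.14 and 6.50 on all 12 arrays, and 1 fell, NKG7 in 2102Ep (-0.44), against 5.9% of all genes.

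After siSOX2 in 2102Ep cells, 6 of the 10 FGF genes fell and 2 rose at an adjusted p of 0.05 or less, while 5.9% of all genes fell and 6.76% rose. The falls were in FGF4, FGF2, FGF13, FGFR2, FGFR3 and FGFR4, and the rises in FGF8 and FGF17. Only FGFR3 changed by 2-fold or more, which 1.98% of all genes did at that adjusted p. In NTera-2 cells 3 of the 10 fell, FGF4, FGF19 and FGF13, against 1.98% of all genes, and 0 rose, against 2.96%. A change of 2-fold or more at that adjusted p was found in 0 of the 10 there, against 0.657% of all genes. By limma's unadjusted p, 5 of the 10 were below 0.05 in NTera-2, of which 1, FGF8, was higher, and 9 of the 10 in 2102Ep. The share of all genes at that looser threshold was not counted, so these counts have no background. The siSOX2 and control arrays did not overlap for 9 of the 10 genes in 2102Ep, against 25.2% of all genes, and for 5 in NTera-2, against 21.3%. For the 10 genes the median change was -0.53 in 2102Ep and 0.04 in NTera-2. For all genes it was -0.01 and 0.04. As this was bulk RNA, fewer cells of a type and less RNA per cell cannot be told apart for any of these genes.

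**Figure D1:**
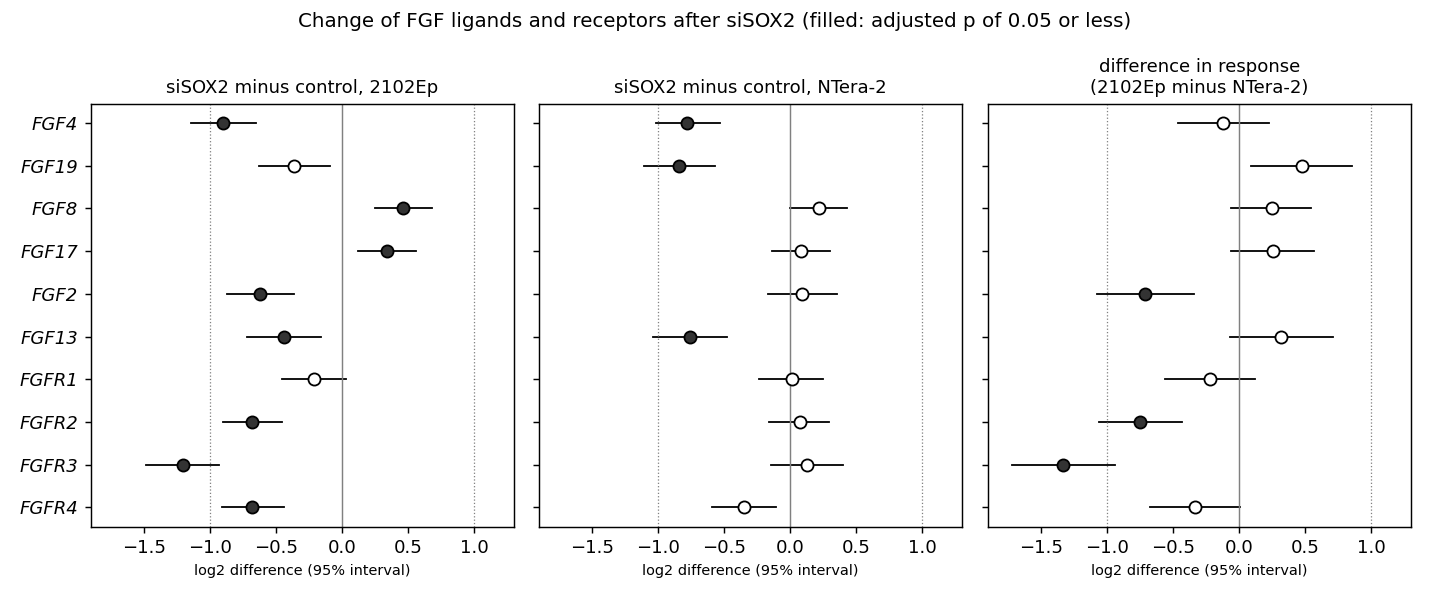
Log2 change of each FGF gene after siSOX2 (horizontal axis, log2 units; points with 95% intervals from limma) in 2102Ep cells (left), in NTera-2 cells (middle), and the response of 2102Ep minus that of NTera-2 (right). Filled points passed an adjusted p of 0.05 and dotted lines mark a 2-fold change; FGFR3 at -1.20 in 2102Ep lies furthest from 0 in the left panel and at -1.33 in the right panel.

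FGF4, the embryonic ligand (chromosome 11, probe set 7950032), fell in both lines. Its signal was 8.89, 8.64 and 8.60 in siSOX2 2102Ep cells, against 9.59, 9.74 and 9.49 in control cells. The signal was 8.25, 8.48 and 8.54 in siSOX2 NTera-2 cells, against 9.18, 9.30 and 9.12 in control cells. Every siSOX2 array lay below every control array of its line. The log2 change was -0.90 ± 0.116 (SE, n = 3 per group) in 2102Ep (adjusted p = 2.79e-05, limma), so that 53.6% of the signal remained (95% interval 45.3 to 63.5%). NTera-2 had a change of -0.78 ± 0.116 (adjusted p = 3.76e-04), and 58.3% remained (interval 49.2 to 69%). The responses of the lines differed by -0.12 (95% interval -0.46 to 0.23, adjusted p = 0.871), where those of SOX2 differed by -2.49. Among the 4 groups, FGF4 was lowest in siSOX2 NTera-2 cells, then in siSOX2 2102Ep cells, then in NTera-2 controls and highest in 2102Ep controls. Only the lowest neighbours in that order did not pass (0.29 apart, adjusted p = 0.0563).

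FGF19, a hormone-like ligand that works through FGFR4 and the co-receptor beta-klotho (KLB), lies beside FGF4 on chromosome 11 (probe set 7950023). Its signal in siSOX2 NTera-2 cells was 7.38, 7.48 and 7.86, against 8.34, 8.64 and 8.26 in control cells. The siSOX2 2102Ep arrays held 7.82, 7.72 and 7.67, against 8.17, 8.05 and 8.08 on the control arrays. Groups of the same line did not overlap. FGF19 fell in NTera-2 by 0.84 ± 0.129 on the log2 scale (SE, adjusted p = 5.00e-04, limma), which left 56% of the control signal. In 2102Ep the change was -0.36 ± 0.129 (adjusted p = 0.0808), and it passed without NTera-2 siSOX2 replicate 3 (adjusted p = 0.0403), after median centring (0.033) and after renewed quantile normalization (0.0206), within a range of 0.0206 to 0.223 over 19 alternatives. The difference between the responses was 0.48 (95% interval 0.09 to 0.86, adjusted p = 0.182) and 0.62 without NTera-2 siSOX2 replicate 3 (adjusted p = 0.0436, range over alternatives 0.0436 to 0.403). FGF19 was dim, its mean over the 12 arrays of 7.96 being below the median gene.

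The neighbours of these genes on chromosome 11 were set beside them. In the RefSeq annotation of GRCh38.p14, CCND1, LTO1, FGF19, FGF4, FGF3, ANO1, FADD and PPFIA1 follow each other in this order among named protein-coding genes. FGF3, a ligand next to FGF4, had a change of -0.15 in 2102Ep (adjusted p = 0.487) and 0.05 in NTera-2 (adjusted p = 0.908), a sign that turned with median centring (-0.01). Of the 10 genes listed for this region, CCND1, the G1 cyclin D1, rose in 2102Ep (0.51, limma adjusted p = 0.00188), where 6.76% of all genes rose. FGF4 fell in 2102Ep, and FGF4 and FGF19 in NTera-2, against 5.9% and 1.98% of all genes. The other members did not pass in either line.

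FGF8 and FGF17 belong to 1 ligand subfamily and share domains in the mouse embryo, among them the primitive streak. FGF8 signal (chromosome 10, probe set 7935892) was 8.53, 8.59 and 8.56 in siSOX2 2102Ep cells, against 7.97, 8.13 and 8.20 in control cells. FGF17 signal (probe set 8144995) was 8.43, 8.43 and 8.49 in siSOX2 2102Ep cells, against 7.97, 8.29 and 8.08 in control cells. For both genes the siSOX2 arrays agreed closely and all lay above the controls. FGF8 rose by 0.46 ± 0.102 (log2, SE, adjusted p = 0.00453, limma), to 138% of control. FGF17 rose by 0.34 ± 0.104 (adjusted p = 0.0402), to 126%, a call that 9 of 19 alternatives kept. Without 2102Ep control replicate 1 its change was 0.27 (adjusted p = 0.145), and without 2102Ep control replicate 3, any 1 of the siSOX2 2102Ep arrays or NTera-2 control replicate 1 or 3 the adjusted p lay between 0.0505 and 0.13. FGF17 too was dimmer than the median gene, with a mean of 7.91 over the 12 arrays.

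In NTera-2 neither ligand passed. FGF8 was 7.81, 7.90 and 7.82 in siSOX2 NTera-2 cells, against 7.78, 7.53 and 7.57 in control cells, groups that did not overlap, with a change of 0.22 (95% interval 0.00 to 0.43, adjusted p = 0.336). FGF17 was 7.47, 7.64 and 7.62 in siSOX2 NTera-2 cells, against 7.44, 7.57 and 7.46 in control cells, with overlapping arrays and a change of 0.08 (adjusted p = 0.814). The responses of the lines differed by 0.25 for FGF8 (interval -0.06 to 0.55) and by 0.26 for FGF17 (interval -0.06 to 0.57), and neither difference passed (adjusted p = 0.506 and 0.494). Both ligands were highest in siSOX2 2102Ep cells and lowest in NTera-2 control cells, with 2102Ep controls above siSOX2 NTera-2 cells. In that order the steps among the lower 3 groups of FGF8 did not pass (adjusted p = 0.0517 and 0.336), though their arrays did not overlap. Of FGF17 only the step between the NTera-2 groups did not pass (adjusted p = 0.814).

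FGF2 (chromosome 4, probe set 8097256), a heparin-binding ligand that leaves the cell without a classical signal peptide, fell in 2102Ep. The siSOX2 2102Ep arrays read 9.21, 9.42 and 9.22, against 9.84, 9.81 and 10.06 on the control arrays. In NTera-2 the siSOX2 arrays read 9.66, 9.50 and 9.89, against 9.70, 9.43 and 9.66 on the control arrays. The groups were apart in 2102Ep and overlapped in NTera-2. FGF2 changed by -0.62 ± 0.122 in 2102Ep (log2, SE, adjusted p = 0.00185, limma), which left 65.2% of the control signal, and by 0.09 ± 0.122 in NTera-2 (adjusted p = 0.838; -0.02 without NTera-2 siSOX2 replicate 3). The difference between the responses of -0.71 (95% interval -1.07 to -0.34) had an adjusted p of 0.0206. It did not pass without 2102Ep siSOX2 replicate 1 (-0.67, adjusted p = 0.0597) or 3 (-0.67, 0.0605), NTera-2 control replicate 2 (-0.62, 0.0642) or NTera-2 siSOX2 replicate 3 (-0.60, 0.0586), nor over all probe sets (0.0787), in a range of 0.0137 to 0.0787. In order of level FGF2 was lowest in siSOX2 2102Ep cells, and no step between neighbouring groups passed (adjusted p = 0.0518 or more).

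FGF13 (chromosome X, probe set 8175444) is a fibroblast growth factor homologous factor, which stays in the cell and binds sodium channels rather than FGF receptors. Its signal was 7.41, 7.17 and 7.10 in siSOX2 NTera-2 cells, against 7.98, 7.88 and 8.08 in control cells. In siSOX2 2102Ep cells it was 8.83, 8.70 and 8.90, against 9.29, 9.51 and 8.96 in control cells. Arrays of the same line did not overlap, but the third 2102Ep control lay close to the siSOX2 arrays. FGF13 fell in NTera-2 by 0.76 ± 0.132 on the log2 scale (SE, adjusted p = 0.00167, limma), to 59.1% of control. In 2102Ep the fall was 0.44 ± 0.132 (adjusted p = 0.0367), a call that 13 of 20 alternatives kept. Without 2102Ep control replicate 2 the change was -0.31 (adjusted p = 0.156), and without 2102Ep control replicate 1 or any 1 of the siSOX2 2102Ep arrays the adjusted p lay between 0.0581 and 0.146. The responses of the lines differed by 0.32 (interval -0.07 to 0.71, adjusted p = 0.504). All neighbouring groups were separated for FGF13, from siSOX2 NTera-2 cells at the bottom, through NTera-2 controls and siSOX2 2102Ep cells, up to 2102Ep controls.

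**Figure D2:**
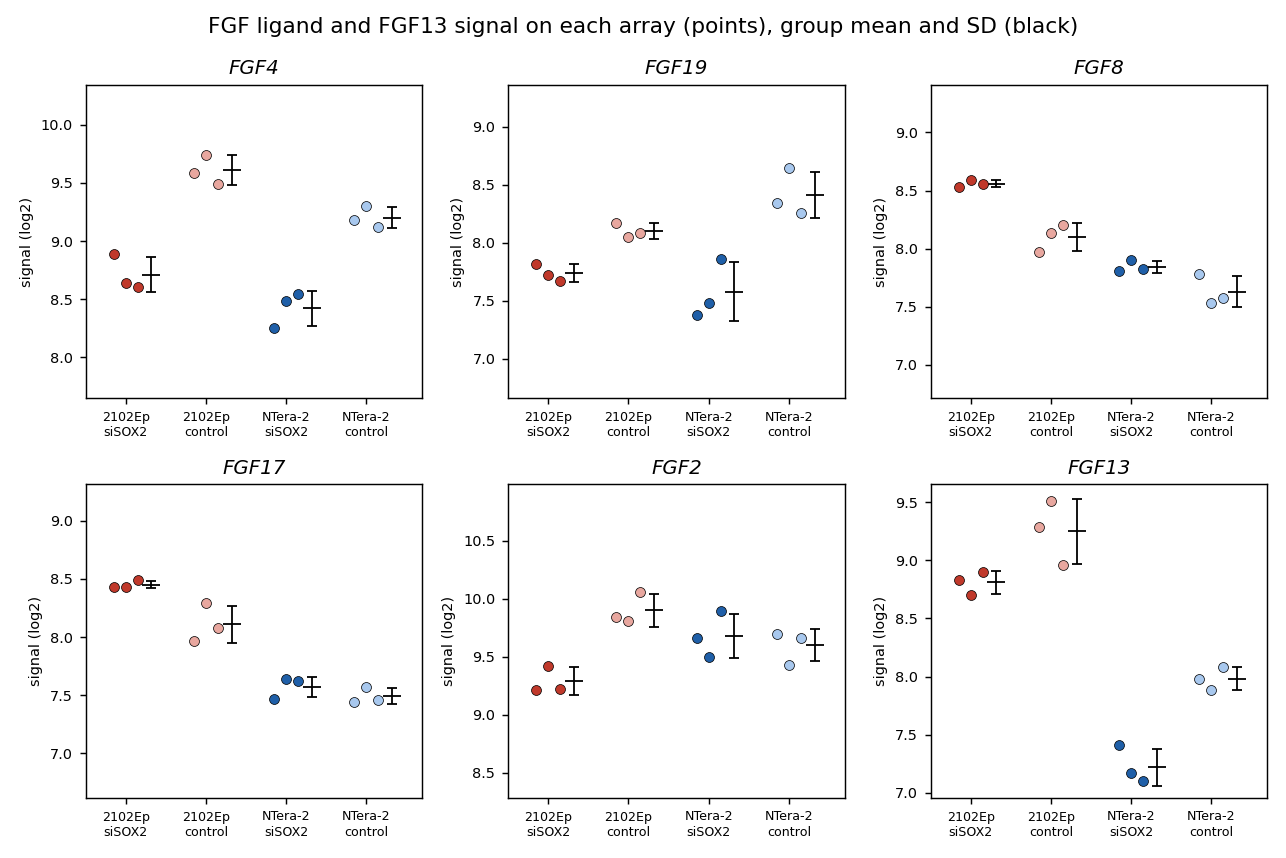
Log2 signal (vertical axis) of the 5 FGF ligands and of FGF13, with 1 coloured point per array in each of the 4 groups and a black bar for the mean and SD; every panel spans the same number of log2 units but has its own level. FGF4 lies lower after siSOX2 in both lines, at 8.71 against 9.61 in 2102Ep and 8.42 against 9.20 in NTera-2, while FGF2 does so in 2102Ep alone and FGF8 and FGF17 lie higher in siSOX2 2102Ep cells than in their controls.

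FGFR3 (chromosome 4, probe set 8093518), the receptor whose activating mutations cause achondroplasia, had the largest fall of the 10 genes in 2102Ep. Its signal in siSOX2 2102Ep cells was 9.55, 9.43 and 9.35, against 10.89, 10.34 and 10.71 in control cells. In siSOX2 NTera-2 cells it was 9.95, 9.80 and 9.92, against 9.85, 9.59 and 9.84 in control cells. The 2102Ep groups were far apart and the NTera-2 groups overlapped. FGFR3 fell by 1.20 ± 0.13 in 2102Ep (log2, SE, adjusted p = 4.06e-06, limma), so that 43.4% of the signal remained (95% interval 35.9 to 52.5%). The change in NTera-2 was 0.13 ± 0.13 (adjusted p = 0.751). At -1.33 ± 0.184 the difference between the responses passed both the 2-fold and the p threshold (adjusted p = 1.84e-04), and leaving out any 1 array did not end that call. FGFR3 was highest in 2102Ep controls (10.65), apart from the next group, siSOX2 NTera-2 (9.89, adjusted p = 1.21e-04). NTera-2 control (9.76) and siSOX2 2102Ep (9.44) followed. Neither step among these lower groups passed (adjusted p = 0.751 and 0.0636), though the arrays of the last step did not overlap.

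FGFR2 (chromosome 10, probe set 7936734), a receptor with separate epithelial and mesenchymal splice forms that this probe set does not tell apart, also fell in 2102Ep. Signals of 8.82, 8.87 and 8.78 in siSOX2 2102Ep cells stood against 9.58, 9.30 and 9.62 in control cells. Signals of 9.97, 9.81 and 9.98 in siSOX2 NTera-2 cells stood against 9.82, 9.82 and 9.92 in control cells. Again the groups were apart in 2102Ep and overlapped in NTera-2. The log2 change was -0.68 ± 0.106 in 2102Ep (SE, adjusted p = 2.24e-04, limma), leaving 62.5%, and 0.07 ± 0.106 in NTera-2 (adjusted p = 0.854). The difference between the responses was -0.75 ± 0.15 (adjusted p = 0.00555). From the top, siSOX2 NTera-2 cells and NTera-2 controls were not separated (adjusted p = 0.854), 2102Ep controls came next and siSOX2 2102Ep cells were lowest.

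FGFR4 (chromosome 5, probe set 8110265), the main receptor of FGF19 in the liver, lay lower after siSOX2 in both lines but passed in 2102Ep alone. It read 9.09, 9.02 and 8.91 in siSOX2 2102Ep cells, against 9.93, 9.54 and 9.57 in control cells. It read 8.67, 8.66 and 8.73 in siSOX2 NTera-2 cells, against 9.02, 9.14 and 8.95 in control cells. The arrays did not overlap in either line. The change was -0.68 ± 0.113 in 2102Ep (log2, SE, adjusted p = 4.30e-04, limma), leaving 62.6%, and -0.35 ± 0.113 in NTera-2 (adjusted p = 0.104), where it passed after median centring (-0.41, adjusted p = 0.0316) and renewed quantile normalization (-0.40, 0.0196), in a range of 0.0196 to 0.302. The difference between the responses did not pass (-0.33, interval -0.67 to 0.01, adjusted p = 0.359). In order of level, siSOX2 2102Ep cells and NTera-2 controls stood side by side (9.00 and 9.03, adjusted p = 0.86).

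FGFR1 (probe set 8150318), the receptor that the mouse epiblast depends on, passed in neither line. Its signal was 10.80, 10.78 and 10.72 in siSOX2 2102Ep cells, against 11.07, 10.73 and 11.15 in control cells. In siSOX2 NTera-2 cells it was 11.87, 11.89 and 12.04, against 11.82, 11.97 and 11.98 in control cells. The groups overlapped in both lines, in 2102Ep through control replicate 2. The change was -0.21 ± 0.114 in 2102Ep (log2, SE, 95% interval -0.45 to 0.03, adjusted p = 0.291, limma) and -0.34 without that control (adjusted p = 0.0442, range over alternatives 0.0442 to 0.594). In NTera-2 it was 0.01 ± 0.114 (interval -0.24 to 0.25, adjusted p = 0.993), and its sign turned with median centring (-0.05) and renewed quantile normalization (-0.00) and without NTera-2 control replicate 1 (-0.05) or NTera-2 siSOX2 replicate 3 (-0.05). Only the step between NTera-2 controls and 2102Ep controls separated neighbouring groups.

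**Figure D3:**
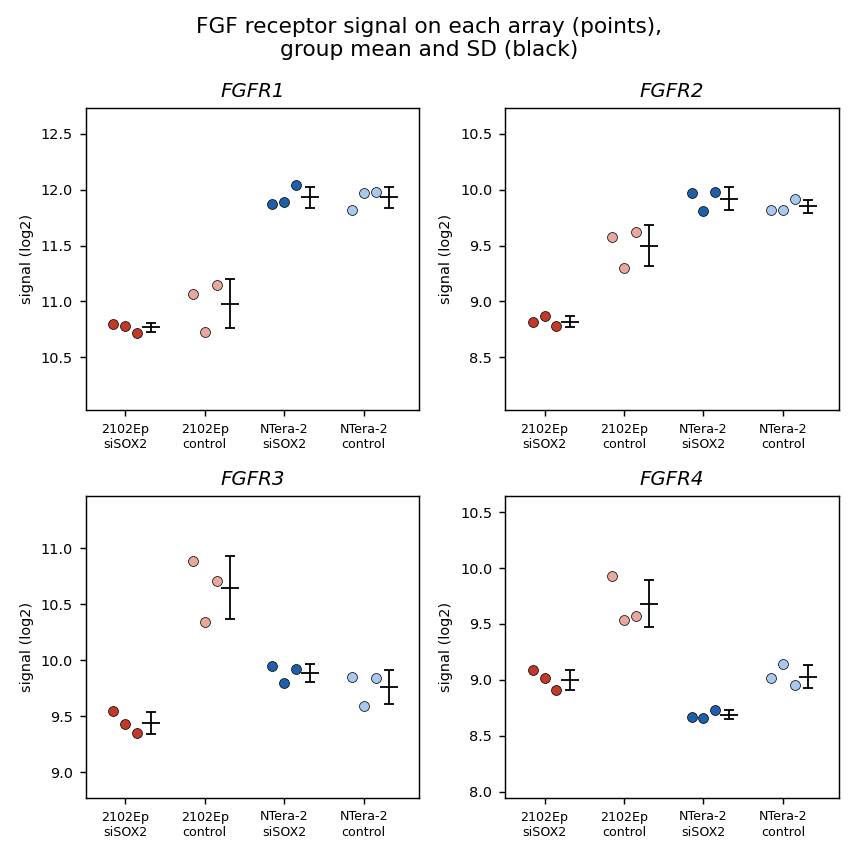
Log2 signal (vertical axis) of the 4 FGF receptors, with 1 coloured point per array in each of the 4 groups and a black bar for the mean and SD; every panel spans the same number of log2 units but has its own level. In 2102Ep the siSOX2 arrays of FGFR2, FGFR3 and FGFR4 lie below all controls, whereas in NTera-2 only those of FGFR4 do, and FGFR1 separates the lines.

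Of the 10 genes 3 differed in response between the lines at an adjusted p of 0.05 or less, FGFR3, FGFR2 and FGF2. All 3 had the lower response in 2102Ep, against 5.2% of all genes in either direction and 2.67% in this one. The receptors FGFR1 and FGFR4 did not pass (-0.22 and -0.33, limma adjusted p = 0.649 and 0.359). Only FGFR3 differed by 2-fold or more, against 1.66% of all genes. The 3 genes that passed had a lower value after siSOX2 in 2102Ep and overlapping arrays in NTera-2. The RNA signal of SOX2 was lowered much further in 2102Ep, while the paper's Western blot showed no SOX2 protein after siSOX2 in either line. The share of SOX2 loss in these differences was not tested.

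The sequences before the starts of these 3 genes are shown because they are the members whose response differed between the lines, and SOX factors and POU5F1 are DNA-binding proteins. In RefSeq promoter windows of GRCh38.p14, 300 bases long with 250 before and 50 after a start, 5 of the 10 genes had a total of 11 windows (FGF2, FGF13, FGFR2, FGFR3 and FGFR4). Both strands were searched for the SOX-type motifs ACAAAG and ACAATG and the octamer ATGCAAAT, none of which contains another. ACAAAG was in 4 of the 11 windows and in 16.1% of all 35116 windows, while the other motifs, found in 10.8% and 1.77% of all windows, were in 0 of the 11. FGFR2 held it in 2 of its 5 windows, and FGF2 and FGFR3 had no match in theirs. A match is only a run of letters and no match says nothing about binding elsewhere. The 250 bases before the start of FGF2 (chr4:122826581-122826830, plus strand), of FGFR3 (chr4:1793043-1793292, plus strand) and of the FGFR2 start with the nearest match (chr10:121596646-121596895, minus strand) are given here, capitals marking CTTTGT, the reverse complement of ACAAAG, which begins 39 bases before that FGFR2 start.
FGF2: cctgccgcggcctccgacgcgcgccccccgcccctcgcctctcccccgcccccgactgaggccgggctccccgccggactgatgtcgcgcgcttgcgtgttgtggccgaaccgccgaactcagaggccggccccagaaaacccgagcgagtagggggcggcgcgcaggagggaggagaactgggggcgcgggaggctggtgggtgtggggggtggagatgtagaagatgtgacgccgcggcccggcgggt
FGFR3: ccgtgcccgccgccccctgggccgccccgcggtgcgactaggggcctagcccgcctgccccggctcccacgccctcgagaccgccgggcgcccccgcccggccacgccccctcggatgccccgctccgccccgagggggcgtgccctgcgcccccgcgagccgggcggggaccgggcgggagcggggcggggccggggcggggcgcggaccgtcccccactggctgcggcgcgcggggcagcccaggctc
FGFR2: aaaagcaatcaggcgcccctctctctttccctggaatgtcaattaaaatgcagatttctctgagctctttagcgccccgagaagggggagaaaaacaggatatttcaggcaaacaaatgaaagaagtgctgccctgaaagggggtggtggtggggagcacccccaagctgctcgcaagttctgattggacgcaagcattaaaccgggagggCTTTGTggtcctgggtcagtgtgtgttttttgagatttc
The full windows of FGF2 and FGFR3 were rich in G and C (74.7% and 86.3%), against 50.3% for this FGFR2 window and a median of 58.7% over all windows. This FGFR2 window was chosen for its match, and another FGFR2 window (chr10:121598395-121598694), without a match, had 79.3%.

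Levels of the FGF genes also differed between the control groups of the lines, which were transfected and kept for as long as the siSOX2 groups. Between NTera-2 controls and 2102Ep controls, 8 of the 10 genes passed, 2 of them higher and 6 lower in NTera-2, against 21% and 21.5% of all genes. The arrays of the 2 control groups did not overlap for any of the 10, as for 50.5% of all genes. FGF13 alone passed the 2-fold threshold as well, against 7.76% of all genes. FGF13 averaged 7.98 ± 0.10 in NTera-2 controls and 9.25 ± 0.28 in 2102Ep controls (SD, n = 3 each), a difference of -1.27 (log2, adjusted p = 6.80e-07, limma). The receptors were unlike each other in this respect. FGFR1 was higher in NTera-2 by 0.94 (11.93 ± 0.09 in NTera-2 controls and 10.98 ± 0.22 in 2102Ep controls, adjusted p = 3.63e-06), and FGFR2 by 0.35 (adjusted p = 0.013). The call for FGFR2 did not pass without 2102Ep control replicate 2 (0.25, adjusted p = 0.0593) or NTera-2 control replicate 3 (0.32, 0.0619), in a range of 0.00694 to 0.0619. FGFR3 was lower in NTera-2 by 0.89 (9.76 ± 0.15 in NTera-2 controls and 10.65 ± 0.28 in 2102Ep controls, adjusted p = 2.89e-05), and FGFR4 by 0.64 (adjusted p = 1.84e-04).

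Among the ligands, FGF17, FGF8 and FGF4 were lower in NTera-2 controls, with differences of -0.62, -0.47 and -0.41 from 2102Ep controls (adjusted p = 1.14e-04, 0.00122 and 0.00885). FGF19 and FGF2 did not pass (0.31, adjusted p = 0.0607, and -0.31, adjusted p = 0.0521), though their arrays did not overlap. Both p-values lay close to the threshold and crossed it in some alternatives, 8 of 20 for FGF2 and 4 of 19 for FGF19. All 10 FGF genes passed after median centring and after renewed quantile normalization. With single arrays left out, FGF2 passed without 2102Ep control replicate 2 (0.0437), NTera-2 control replicate 1 (0.0485) or NTera-2 siSOX2 replicate 2 (0.045) or 3 (0.0381). Over all alternatives its range was 0.0146 to 0.219. FGF19 passed without NTera-2 control replicate 3 (0.0486) or NTera-2 siSOX2 replicate 3 (0.0308), and its range over all alternatives was 0.0294 to 0.282.

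The rest of the FGF family was counted in the same way. Of 16 further FGF genes, 5 fell and 1 rose in 2102Ep, against 5.9% and 6.76% of all genes, and 2 passed in NTera-2, both lower, against 1.98%, with medians of -0.13 in 2102Ep and -0.00 in NTera-2. FGF16, a ligand of the FGF9 subfamily, fell in both lines. Its signal was 6.55, 6.87 and 6.65 in siSOX2 2102Ep cells, against 7.82, 8.11 and 8.13 in control cells, a change of -1.33 (adjusted p = 4.48e-07, limma). It was 6.69, 6.48 and 6.40 in siSOX2 NTera-2 cells, against 7.29, 7.42 and 7.44 in control cells, a change of -0.86 (adjusted p = 1.99e-04), and no array of a siSOX2 group reached the controls of its line. FGF11 and FGF12 are homologous factors like FGF13. FGF11 fell in 2102Ep (-0.75, adjusted p = 2.03e-05), with a change of 0.15 in NTera-2 (adjusted p = 0.539). FGF12 fell in NTera-2 (-0.96, adjusted p = 1.56e-05) and by less in 2102Ep (-0.37, adjusted p = 0.0238, up to 0.134 over the alternatives). The other falls in 2102Ep were in FGF23 (-0.46, adjusted p = 0.0188) and FGF6 (-0.35, adjusted p = 0.0323), neither kept in every alternative (adjusted p up to 0.0756 and 0.12), and the rise was in FGF1, the acidic ligand that binds all FGF receptors (0.75, adjusted p = 4.16e-04). Without 2102Ep siSOX2 replicate 3, a total of 3 rather than 6 of the 16 passed in 2102Ep.

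Co-receptors and heparan sulphate enzymes help to set how ligands meet receptors. Of 19 co-receptors and binding proteins, 4 rose and 1 fell in 2102Ep, against 6.76% and 5.9% of all genes, and 1 rose in NTera-2, against 2.96%, with medians of 0.02 and -0.03. FLRT3, a membrane protein that binds FGF receptors, was 7.81, 7.64 and 7.68 in siSOX2 2102Ep cells, against 6.26, 6.65 and 6.37 in control cells (change 1.28, adjusted p = 4.70e-07, limma). In NTera-2 its change was -0.03 (adjusted p = 0.953; 0.03 without NTera-2 siSOX2 replicate 2). NCAM1, an adhesion molecule that can engage FGF receptors, rose by 0.81 in 2102Ep and by 0.87 in NTera-2 (adjusted p = 2.35e-04 and 3.41e-04). The glypicans GPC4 (0.49, adjusted p = 0.00509) and GPC6 (0.43, adjusted p = 0.0289) rose and the syndecan SDC2 (-0.62, adjusted p = 0.00543) fell in 2102Ep. For GPC6 the adjusted p reached 0.109 over the alternatives, and it did not pass without 2102Ep control replicate 2 or 3 or 2102Ep siSOX2 replicate 1 or 3. Beta-klotho (KLB), the partner of FGFR4 for FGF19, did not pass (-0.17 and -0.14 in 2102Ep and NTera-2). Of 17 enzymes of heparan sulphate, 5 passed in 2102Ep, all higher, against 6.76% of all genes, HS3ST3B1 (0.85), the chain polymerase EXT1 (0.72), HS3ST3A1 (0.61), NDST1 (0.45) and HS6ST2 (0.36), and 0 passed in NTera-2 (4 had an unadjusted p below 0.05 in limma, for which the share of all genes was not counted, and 1 or 2 passed in some alternatives). The 5 became 3 without 2102Ep control replicate 3, 2102Ep siSOX2 replicate 1 or 3 or NTera-2 control replicate 3.

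Of the adaptors and the RAS to ERK relay, 14 genes were counted and 1 rose in each line, where 6.76% of all genes rose in 2102Ep and 2.96% in NTera-2. This was MAPK3, which encodes ERK1, in 2102Ep (0.35, adjusted p = 0.0272), and SOS2, an exchange factor for RAS, in NTera-2 (0.56, adjusted p = 0.0424). Neither call held in every alternative, the adjusted p reaching 0.0885 for MAPK3 and 0.242 for SOS2.

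Feedback inhibitors and targets of FGF and ERK signalling changed in both lines. Of 22 genes, 10 fell and 1 rose in NTera-2, against 1.98% and 2.96% of all genes, and 5 fell and 4 rose in 2102Ep, against 5.9% and 6.76%, with medians of -0.39 and -0.13. DUSP6, the phosphatase of ERK that FGF signalling induces, went in opposite directions. Its signal was 8.44, 8.53 and 8.89 in siSOX2 2102Ep cells, against 7.32, 7.54 and 7.77 in control cells. In siSOX2 NTera-2 cells it was 8.14, 7.76 and 8.32, against 9.73, 9.81 and 9.68 in control cells. On average the siSOX2 groups, at 8.62 in 2102Ep and 8.08 in NTera-2, lay between the control groups (7.54 and 9.74). The arrays of the siSOX2 groups did not overlap between the lines. DUSP6 rose by 1.08 ± 0.152 in 2102Ep (log2, SE, adjusted p = 7.11e-05, limma) and fell by 1.67 ± 0.152 in NTera-2 (adjusted p = 2.25e-06), a difference of 2.75 (adjusted p = 3.07e-07).

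Of the ETV factors and Sprouty genes, ETV1, ETV4 and SPRY2 fell in both lines, ETV5 in 2102Ep and SPRY1 in NTera-2. ETV1 changed by -1.15 in 2102Ep and -0.74 in NTera-2 (adjusted p = 8.18e-06 and 0.00222), and ETV4 by -0.69 and -1.10 (adjusted p = 9.43e-04 and 2.66e-05). ETV5 was 10.14 ± 0.20 in siSOX2 and 11.09 ± 0.10 in control 2102Ep cells (change -0.96, adjusted p = 2.17e-05), with a change of -0.26 in NTera-2 (adjusted p = 0.317). SPRY2 changed by -0.72 and -0.55 (adjusted p = 1.83e-04 and 0.00511). SPRY1 was 8.52, 8.46 and 8.72 in siSOX2 NTera-2 cells, against 9.34, 9.92 and 9.59 in control cells (change -1.05, adjusted p = 6.39e-05), with a change of -0.08 in 2102Ep (adjusted p = 0.799). SPRY4 passed in neither line (0.48 in 2102Ep, adjusted p = 0.056, and -0.47 in NTera-2, adjusted p = 0.115), but its responses differed by 0.96 (adjusted p = 0.0157). IL17RD, an FGF inhibitor also called SEF, fell in NTera-2 (-0.74, adjusted p = 5.22e-04), with a change of 0.13 in 2102Ep (adjusted p = 0.585). SHISA3, which holds back FGF and Wnt receptors, had the largest fall of the list in each line, with 7.58, 7.40 and 7.34 in siSOX2 2102Ep cells, against 8.78, 9.00 and 8.93 in control cells, and 8.52, 8.83 and 8.70 in siSOX2 NTera-2 cells, against 11.56, 11.60 and 11.38 in control cells. Those changes were -1.46 and -2.83 (adjusted p = 6.76e-08 and 1.83e-10). Besides DUSP6, IER3 (0.91), EGR1 (0.69, adjusted p up to 0.131 over the alternatives) and CCND1 (0.51) rose in 2102Ep, and SHISA2 (0.63) rose in NTera-2.

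**Figure D4:**
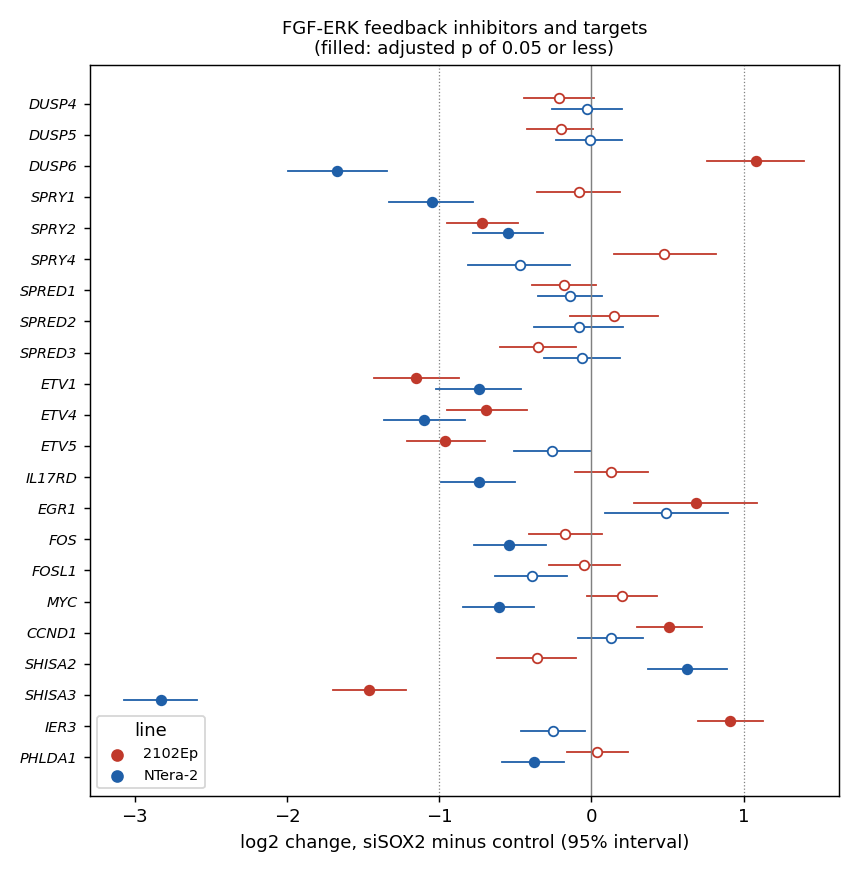
Log2 change after siSOX2 (horizontal axis, log2 units; points with 95% intervals from limma) of the 22 listed feedback inhibitors and targets of FGF and ERK signalling in 2102Ep (red) and NTera-2 (blue), filled where the adjusted p was 0.05 or less, with dotted lines at a 2-fold change. DUSP6 lies at 1.08 in 2102Ep and at -1.67 in NTera-2, and SHISA3 lies furthest to the left in both lines.

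FGF4 was set beside a list of joint targets of SOX2 and POU5F1 and core pluripotency factors. Of 10 measured, SOX2 included, 5 fell and 1 rose in 2102Ep, against 5.9% and 6.76% of all genes, and 3 passed in NTera-2, all lower, against 1.98%, with medians of -0.36 and -0.24. UTF1, a chromatin factor with a SOX2 and POU5F1 enhancer, changed by -1.28 in 2102Ep (adjusted p = 1.51e-06, limma) and -0.37 in NTera-2 (adjusted p = 0.132), a difference of -0.91 (adjusted p = 0.00479). CRIPTO, the Nodal co-receptor, fell by 1.16 in 2102Ep (adjusted p = 0.00369) and by 1.02 in NTera-2 (adjusted p = 0.0227). The NTera-2 call of CRIPTO did not pass without NTera-2 control replicate 2 (-0.87, adjusted p = 0.108) or 3 (-1.06, 0.0573) or NTera-2 siSOX2 replicate 1 (-1.08, 0.0545) or 2 (-0.82, 0.104), in a range of 0.00216 to 0.137.

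Primitive streak genes, whose embryonic domains overlap those of FGF8, FGF17 and FGF4 in the mouse, rose in 2102Ep. Of 15 measured, 11 passed in 2102Ep and 3 in NTera-2, all higher, against 6.76% and 2.96% of all genes, with medians of 1.17 and 0.04. Changes in 2102Ep reached 4.28 for MSGN1, 3.42 for MIXL1, 2.98 for TBXT (brachyury), 2.44 for WNT8A, 2.06 for EOMES, 1.91 for LHX1 and 1.50 for EVX1. FGF8 and FGF17, at 0.46 and 0.34, had smaller log2 changes in the same cells. In NTera-2 EOMES (2.04), MIXL1 (1.17) and LHX1 (0.59) rose, where FGF8 and FGF17 did not pass, and the responses of EOMES differed between the lines by 0.02 (95% interval -0.44 to 0.48, adjusted p = 0.993).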

How the data were processed

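Total RNA of 2102Ep and NTera-2 cells was hybridised to 12 arrays. The authors deposited a log2 signal for each probe set, made with the robust multi-array average in the scanner maker's software (version not given in the sources used here). As no log base is stated, it was taken from the range of values, 1.57 to 14.98. Per the submitters' processing notes limma was among their tools, with no version given. The robust multi-array average compresses small differences of dim probe sets, and precision is limited by how many arrays there are. No column was without a sample.

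Of 32321 probe sets, 19158 were annotated to 1 gene, 1388 to several and 11775 to none, and only the first kind was named. Where a gene had several, its brightest probe set by mean signal was kept, giving 18404 genes, of which 18376 matched the RefSeq genes of GRCh38.p14, used for symbols and gene order. A level was compared only with levels of the same probe set.

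All 12 arrays entered one model with a mean per group (lmFit, contrasts and eBayes in limma 3.58.1, R 4.3.3), with Benjamini-Hochberg adjustment over 18404 genes within each contrast. Genes passed at an adjusted p of 0.05 or less, and "2-fold or more" adds an unadjusted p of 0.01 or less and a log2 change of at least 1. Tables were handled with pandas 2.3.3 and plots drawn with matplotlib 3.10.9. An exact two-sided permutation test of 3 arrays against 3 cannot go below 0.1, so none was used. In a simulation of siSOX2 against control for 2102Ep (18404 genes), genes were called by the 2-fold rule. It recovered 98% of genes with a log2 change of 1.5 and 100% of those with a change of 3, with 0 false calls. Unchanged genes were given equal means in siSOX2 and control, with independent noise, so few false calls could arise under that rule. Smaller changes and calls at any fold were not simulated, so these figures do not cover them.

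The FGF genes, the gene lists and the rules were chosen with earlier results of these data known. Genes are named by rule: the 10 FGF genes, SOX2, up to 6 genes a list that passed with 2-fold or more in a knock-down, DUSP6, FGF3, and for FGF13 and FGFR3 the 3 genes with the most similar signals. Further list members were named after their values were seen, where few passed. Alternatives covered median centring, a replicate block, a filter on dim genes, a fit of only the groups compared, renewed quantile normalization, an intensity trend, another probe set per gene, all probe sets, no fold threshold and leaving out each array. A planned comparison of protein sequences was not made here.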

Additional observations from a re-analysis of the deposited data

Results flagged for a closer look

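Of the genes described above, those named here responded differently in the 2 lines, by the test of the difference itself (2102Ep response minus NTera-2 response on the log2 scale, limma adjusted p of 0.05 or less). By the same test 5.2% of all genes differed in either direction, and 2.67% had the lower response in 2102Ep. Among the 10 FGF genes these were FGFR3 at -1.33 (change -1.20 in 2102Ep and 0.13 in NTera-2), FGFR2 at -0.75 (-0.68 and 0.07) and FGF2 at -0.71 (-0.62 and 0.09). Of the 16 further FGF genes 2 had a higher response in 2102Ep, FGF1 at 0.87 and FGF12 at 0.59, and 1 a lower, FGF11 at -0.90. Of the 17 heparan sulphate enzymes 2 had a higher response in 2102Ep, HS3ST3A1 at 0.70 and EXT1 at 0.69, and 1 a lower, SULF1 at -0.81. Of the 22 feedback inhibitors and targets 7 had a higher and 2 a lower response in 2102Ep, among them DUSP6 at 2.75, SHISA3 at 1.37, IER3 at 1.16, SPRY1 at 0.97, SPRY4 at 0.96, IL17RD at 0.87, ETV5 at -0.69 and SHISA2 at -0.99. Of the 19 co-receptors and binding proteins there were 3, FLRT3 at 1.31, GPC4 at 0.58 and SDC2 at -0.97. SHISA3 fell in both lines, further in NTera-2. SOX2 itself differed at -2.49 and its target UTF1 at -0.91. Of the 15 primitive streak genes 9 differed, all with the higher response in 2102Ep, among them MSGN1 at 4.14, TBXT at 2.58, MIXL1 at 2.25, WNT8A at 2.12, EVX1 at 1.54 and LHX1 at 1.32. Line, transfection reagent and siRNA amount cannot be told apart in any of these differences. No group had the 4 arrays that a test for an outlying array needs.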

How the results depend on the processing

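SOX2 fell in both lines under every alternative run, at -3.24 to -2.99 in 2102Ep and -0.67 to -0.61 in NTera-2 when single arrays were left out. At the 2-fold threshold the number of the 10 FGF genes was unchanged (1, 0, 1 and 1 in 2102Ep, in NTera-2, for the difference in response and between control groups) in all alternatives with that threshold except between control groups, where it ran between 1 and 2 as single arrays were left out: it was 2 without 2102Ep control replicate 2 or 3. With no fold threshold it was 8, 3, 3 and 8 of the FGF genes, and 2330, 909, 957 and 7809 of all genes. Without genes below the median signal, which left 9202 genes and dropped FGF17 and FGF19, 212, 66, 166 and 866 of all genes were called. The number of FGF genes at any fold ranged over all alternatives between 6 and 9 in 2102Ep, 2 and 4 in NTera-2, 2 and 3 for the difference and 8 and 10 between control groups. Signs turned only for changes in NTera-2 that did not pass: FGF2 ran between -0.02 and 0.18, FGFR1 between -0.05 and 0.04, FGF3 between -0.00 and 0.09, FLRT3 between -0.09 and 0.03 and EVX1 between -0.09 and 0.01 as single arrays were left out, and FGFR1 was at -0.05 and -0.00 and FGF3 at -0.01 after median centring or renewed quantile normalization. The cause was not tested.

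The labels do not say what arrays with the same replicate number share. Deviations from the group means of such arrays correlated between -0.316 and 0.268, both extremes lying between the control groups of the 2 lines. Between siSOX2 and control arrays the values were 0.065, 0.179 and 0.128 in 2102Ep and -0.249, -0.206 and 0.136 in NTera-2. With 3 arrays a group, correlations this weak neither show a pairing nor exclude one. With the replicate number as a block, 8 FGF genes passed in 2102Ep, 3 in NTera-2, 3 for the difference and 8 between control groups, and 365, 121, 307 and 1429 of all genes were called. Of the genes named, FGF6, NDST1 and SOS2 no longer passed with the block. FGF17 and FGF19 were dimmer than the median gene, and 3 arrays a group limit the precision of every value.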

Other observations

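For the 2 FGF genes that passed the 2-fold threshold in any comparison, the genes with the most similar signals were found by the root mean square difference of log2 signals, each centred over the 12 arrays. FGFR3 was nearest to SLC23A2, a vitamin C transporter (0.143), AFF2 (0.154) and FAT4, an atypical cadherin (0.160). SLC23A2 changed by -1.32 in 2102Ep and 0.09 in NTera-2, AFF2 by -1.03 and 0.03, and FAT4 by -1.26 and 0.24. FGF13 was nearest to SPP1, which encodes osteopontin (0.163), the membrane protease gene MME (0.166) and the collagen-modifying enzyme PLOD2 (0.187). Between NTera-2 controls and 2102Ep controls these differed by -1.21, -1.53 and -1.20, and FGF13 by -1.27. The genes were picked for this likeness, so their values are a description only.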
